A study of Mus musculus with 6 samples.

Results

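The matricellular and adhesive glycoproteins described here are 10 secreted matrix proteins, encoded by Postn, Tnc, Tnxb, Fn1, Mgp, Igsf10, Svep1, Sparc, Sparcl1 and Tgfbi. Each gene was taken from the transcript clusters (the array's gene-level probe groups) that carry its symbol and no other, keeping the one with the highest mean signal of the 6 arrays. Every one of the 10 had exactly 1 such cluster, so the 10 genes are 10 of the 65956 clusters tested and 10 of the 30098 genes that had such a cluster. The genes were chosen from a list drawn up with the log2 differences between the groups already known, and those differences are therefore given as a description of these hearts, and a count over the 10 supports nothing beyond them.

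Signals were measured in left ventricular RNA of male C57/Bl6 mice, with 1 array and 1 mouse for each of 6 samples. The control mice had received 4000000000000 vg of AAV9-GFP intraperitoneally at 1 week of age (n = 3), and the other mice the same dose of AAV9 that carried flag-tagged mouse Rbm24, an RNA-binding splicing factor (n = 3). All were sacrificed 2 weeks after injection. Both viruses thus reached wild-type animals, and the Rbm24 vector used a CMV promoter, which is not restricted to heart muscle cells, although AAV9 infects mainly these in the heart.

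Matricellular proteins are secreted into the matrix but do not build its fibers. They bind integrins, collagens and growth factors at the surface of cells, and several of them are low in the resting adult heart and are made by fibroblasts after injury. Adhesive glycoproteins such as fibronectin give cells a substrate to hold, and the other proteins of the group tune how collagen is laid down or whether a tissue mineralizes.

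Of the 10 genes, 3 rose in the AAV9-Rbm24 hearts at an adjusted p under 0.05 in limma (linear models with moderated variances, Benjamini-Hochberg adjustment over all clusters). These were Mgp, Igsf10 and Svep1, and 0 fell, also at an unadjusted p under 0.05. Across all clusters, 0.241% were higher and 0.0258% lower by this rule, and nothing is read from the difference, since the genes were listed with this contrast known. All 10 means were higher with AAV9-Rbm24, by 0.06 to 3.69 on the log2 scale with a median of 1.26, where the median over all clusters was -0.03. For 9 genes every AAV9-Rbm24 heart lay above every AAV9-GFP heart, an order found in 7.01% of clusters. With 3 hearts against 3, the smallest p of a two-sided exact permutation test is 0.1, so this order alone cannot pass a threshold of 0.05. An unadjusted p under 0.05 was reached by 8 members and by 4.08% of clusters on the higher side. When a 1.5-fold difference was asked for as well, as in the methods of the study, 7 members and 1.23% of clusters were higher. Sparc fell short of this fold alone, and Tnxb and Sparcl1 of both criteria.

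**Figure D1:**
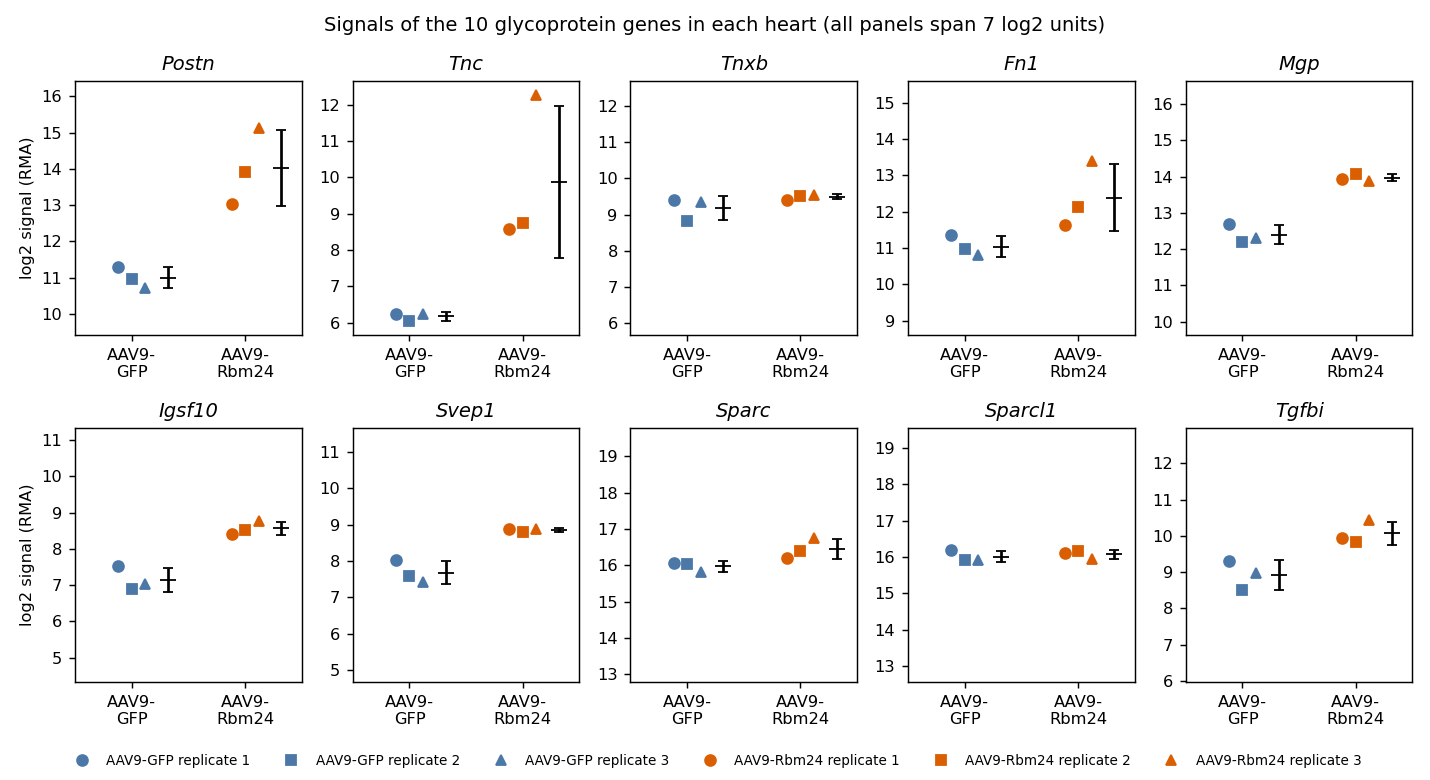
Log2 signals (RMA) of the 10 genes in each of the 6 hearts, with blue for AAV9-GFP, orange for AAV9-Rbm24, the symbol shape for the replicate number, and black bars for the mean ± SD of each group (n = 3). Tnc, Postn and Fn1 spread widely among the AAV9-Rbm24 hearts. The AAV9-Rbm24 hearts lie close together for Mgp, Svep1 and Tnxb, and the groups overlap for Sparcl1.

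Postn encodes periostin, which binds collagen and integrins and is a textbook marker of activated heart fibroblasts. In AAV9-GFP hearts its log2 signal was 11.31, 10.98 and 10.72, and in AAV9-Rbm24 hearts 13.04, 13.92 and 15.12. The groups were separated by 1.73 log2 units, and AAV9-Rbm24 replicate 3 lay highest. The difference of 3.03 (standard error 0.46, 95% interval 1.96 to 4.09), or 8.14-fold, did not pass the adjusted threshold (adjusted p = 0.06 from limma). It passed without AAV9-Rbm24 replicate 3, with a smaller difference of 2.48 (adjusted p = 0.0436 from limma), without AAV9-Rbm24 replicate 1, with 3.52 (adjusted p = 0.0471), and when clusters with 1 gene symbol alone were tested (adjusted p = 0.0308). The adjusted p of Postn was 0.0308 to 0.241 under the alternatives tried (limma).

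Tnc encodes tenascin C, a large multi-armed glycoprotein that is prominent in embryonic tissue and in healing wounds. Tnc had log2 signals of 6.25, 6.03 and 6.24 in AAV9-GFP hearts, and of 8.57, 8.75 and 12.28 in AAV9-Rbm24 hearts. The AAV9-GFP values lie little above the median signal of the arrays (5.49 to 5.67), so that the fold is a lower bound wherever that signal is background. The difference was 3.69 (standard error 0.87, 95% interval 1.67 to 5.71), the largest of the 10 genes and the least precise of them (adjusted p = 0.22 from limma). Against the AAV9-GFP mean, AAV9-Rbm24 replicates 1, 2 and 3 were 5.27-fold, 5.96-fold and 68.8-fold higher. Without replicate 3 the difference shrank to 2.49 while its adjusted p fell to 0.0036 (limma), with 8.57 and 8.75 in the remaining AAV9-Rbm24 hearts. Over all alternatives the adjusted p was 0.0036 to 0.449 (limma).

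The promoter windows of both genes are shown because these were the members with the largest differences and because each holds a TATA motif just before its start. They are RefSeq windows of 300 bases (GRCm38.p6), from 250 bases before a transcription start to 50 after it, written 5′ to 3′ on the strand of the gene. The Postn window is chr3:54360857-54361156 on the plus strand and the Tnc window chr4:64046887-64047186 on the minus strand, in each case the one that holds the motif nearest to the start, of 2 windows listed for the gene. Capitals mark matches, on either strand, to TATAA, to the AP-1 motif TGANTCA, to the Smad box CAGAC, to the TEAD motif GGAATG and to the CArG box of serum response factor.
Postn: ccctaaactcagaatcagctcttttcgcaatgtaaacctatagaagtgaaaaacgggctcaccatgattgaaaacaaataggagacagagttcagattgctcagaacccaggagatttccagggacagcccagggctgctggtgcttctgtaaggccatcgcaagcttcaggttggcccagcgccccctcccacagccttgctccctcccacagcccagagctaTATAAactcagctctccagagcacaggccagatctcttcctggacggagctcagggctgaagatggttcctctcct
Tnc: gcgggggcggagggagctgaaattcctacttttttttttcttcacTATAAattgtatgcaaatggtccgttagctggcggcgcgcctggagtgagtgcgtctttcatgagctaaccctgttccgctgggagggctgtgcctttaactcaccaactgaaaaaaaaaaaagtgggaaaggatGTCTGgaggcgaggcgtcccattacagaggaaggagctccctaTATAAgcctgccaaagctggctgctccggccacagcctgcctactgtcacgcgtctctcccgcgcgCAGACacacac
The TATAA match began 26 bases before the start in Postn and 27 in Tnc, where Tnc holds another 205 bases before it. Of all 32851 windows of this length, 24.9% hold TATAA somewhere. The Tnc window also holds CAGAC on both strands, as 49.6% of all windows hold it on at least 1 strand, and no match in either window overlapped another. These are matches of letters and not evidence of binding.

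Fn1 encodes fibronectin, the adhesive glycoprotein that integrins assemble into fibrils and on which collagen is laid down. The AAV9-GFP hearts had log2 signals of 11.35, 10.97 and 10.79 and the AAV9-Rbm24 hearts of 11.64, 12.12 and 13.40. The groups did not overlap, but AAV9-Rbm24 replicate 1 lay only 0.29 above the highest control. The difference was 1.35 (standard error 0.41, 95% interval 0.41 to 2.29, adjusted p = 0.37 from limma). Single AAV9-Rbm24 hearts lay 1.52-fold, 2.12-fold and 5.15-fold above the control mean, and without replicate 3 the difference was 0.84 (adjusted p = 0.342 from limma, and 0.237 to 0.622 over all alternatives).

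Mgp and Svep1 rose to nearly the same signal in all 3 AAV9-Rbm24 hearts, while Igsf10 rose too but spanned 0.36 among them. Mgp encodes matrix Gla protein, a vitamin K-dependent inhibitor of soft tissue calcification. Mgp signals were 12.70, 12.19 and 12.31 with AAV9-GFP and 13.93, 14.07 and 13.89 with AAV9-Rbm24. Here AAV9-Rbm24 replicate 3 was the lowest of its group, and the groups lay 1.18 apart. The increase of 1.56 (standard error 0.15, 95% interval 1.22 to 1.91), or 2.96-fold, passed the adjusted threshold (adjusted p = 0.0169 from limma).

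Igsf10 encodes a secreted protein of the immunoglobulin superfamily with leucine-rich repeats. Hearts had log2 signals of 7.52, 6.89 and 7.03 with AAV9-GFP and 8.41, 8.53 and 8.76 with AAV9-Rbm24, with a gap of 0.89 between the groups. It rose by 1.42 (standard error 0.18, 95% interval 1.00 to 1.83, adjusted p = 0.031 from limma), or 2.67-fold. Svep1 encodes polydom, a very large secreted protein that is a ligand of integrin α9β1. For Svep1 the log2 signals were 8.04, 7.58 and 7.43 with AAV9-GFP and 8.89, 8.80 and 8.89 with AAV9-Rbm24, so that the AAV9-Rbm24 hearts spanned 0.09 and the controls 0.61. Svep1 rose by 1.18 (standard error 0.16, 95% interval 0.81 to 1.55, adjusted p = 0.0402 from limma), or 2.27-fold.

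These 3 calls did not hold whichever array was left out. Mgp kept its call with AAV9-GFP replicate 1 left out (adjusted p = 0.0317 from limma) or AAV9-Rbm24 replicate 3 left out (0.0405) and lost it without each of the other 4 arrays (0.0589 to 0.097). The calls of Igsf10 and Svep1 were lost whichever array was left out (0.0576 to 0.149 and 0.0576 to 0.195), and the log2 difference was then 1.29 to 1.60 for Igsf10 and 1.05 to 1.36 for Svep1.

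The promoter windows of Igsf10 (chr3:59344207-59344506, minus strand) and Svep1 (chr4:58206547-58206846, minus strand) are shown for comparison with those of Postn and Tnc, with the same motifs in capitals. Mgp is not among the 7 members with a window in the table used.
Igsf10: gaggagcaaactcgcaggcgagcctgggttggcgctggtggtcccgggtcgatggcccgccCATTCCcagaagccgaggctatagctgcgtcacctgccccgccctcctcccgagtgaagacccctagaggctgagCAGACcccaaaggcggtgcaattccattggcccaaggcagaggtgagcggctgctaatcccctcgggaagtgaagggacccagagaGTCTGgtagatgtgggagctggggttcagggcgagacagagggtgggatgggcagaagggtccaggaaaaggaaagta
Svep1: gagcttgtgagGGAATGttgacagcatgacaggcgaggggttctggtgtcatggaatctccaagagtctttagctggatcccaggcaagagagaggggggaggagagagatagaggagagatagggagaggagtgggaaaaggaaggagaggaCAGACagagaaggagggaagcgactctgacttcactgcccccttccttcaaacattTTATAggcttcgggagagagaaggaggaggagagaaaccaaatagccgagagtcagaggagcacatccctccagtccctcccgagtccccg
Both windows hold GGAATG, which 14.7% of all windows hold, and CAGAC. The letters TATAA occur in Svep1 on the opposite strand and not in Igsf10. By window, as the shares are given, TATAA was found in 4 of the 9 member windows and CAGAC in 8. By gene, TATAA was found in 3 of the 7 (Postn, Tnc and Svep1) and CAGAC in all 7. Postn holds CAGAC only in its other window, which is not shown. The Tnc windows overlap, so that a match can lie in both of them. TGANTCA, held by 7.81% of all windows, was found in Tnxb alone, and the CArG box, held by 1.63%, in none.

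The remaining members were Tgfbi, Sparc, Sparcl1 and Tnxb. Tgfbi encodes a protein induced by Tgfβ that shares the fasciclin domains of periostin. Tgfbi signals were 9.32, 8.50 and 8.97 with AAV9-GFP and 9.94, 9.83 and 10.44 with AAV9-Rbm24. The groups did not overlap, and the difference of 1.14 (standard error 0.23, 95% interval 0.60 to 1.69, adjusted p = 0.149 from limma) was 2.21-fold, close to that of Svep1. The control hearts of Tgfbi spanned 0.82, the widest control range of the 10 genes.

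Sparc encodes osteonectin, which binds collagen and calcium and is needed for mature collagen fibrils in the mouse heart. Its log2 signal was 16.07, 16.03 and 15.80 with AAV9-GFP and 16.21, 16.38 and 16.75 with AAV9-Rbm24. The difference of 0.48 (standard error 0.16, 95% interval 0.12 to 0.84, adjusted p = 0.423 from limma) equals 1.4-fold. Its relative Sparcl1, or hevin, had values of 16.18, 15.91 and 15.93 with AAV9-GFP and 16.11, 16.17 and 15.94 with AAV9-Rbm24. Sparcl1 was the only member whose groups overlapped, and its difference of 0.06 had a 95% interval of -0.21 to 0.34 (adjusted p = 0.93 from limma). Signals of both genes were far above the array medians and below the ceiling of the arrays at 19.93.

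Tnxb encodes tenascin X, which spaces and stabilizes collagen fibrils. Its log2 signal was 9.41, 8.82 and 9.34 with AAV9-GFP and 9.41, 9.51 and 9.54 with AAV9-Rbm24. The lowest AAV9-Rbm24 heart exceeded the highest control by 0.002, so the separation of the groups has no weight. The difference was 0.3 (standard error 0.16, 95% interval -0.08 to 0.68, adjusted p = 0.689 from limma). Members of 1 protein family thus had unlike values. Tnc and Tnxb differed between the groups by 3.69 and 0.3, Sparc and Sparcl1 by 0.48 and 0.06, and the fasciclin proteins Postn and Tgfbi by 3.03 and 1.14, and these pairs were not tested against each other.

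**Figure D2:**
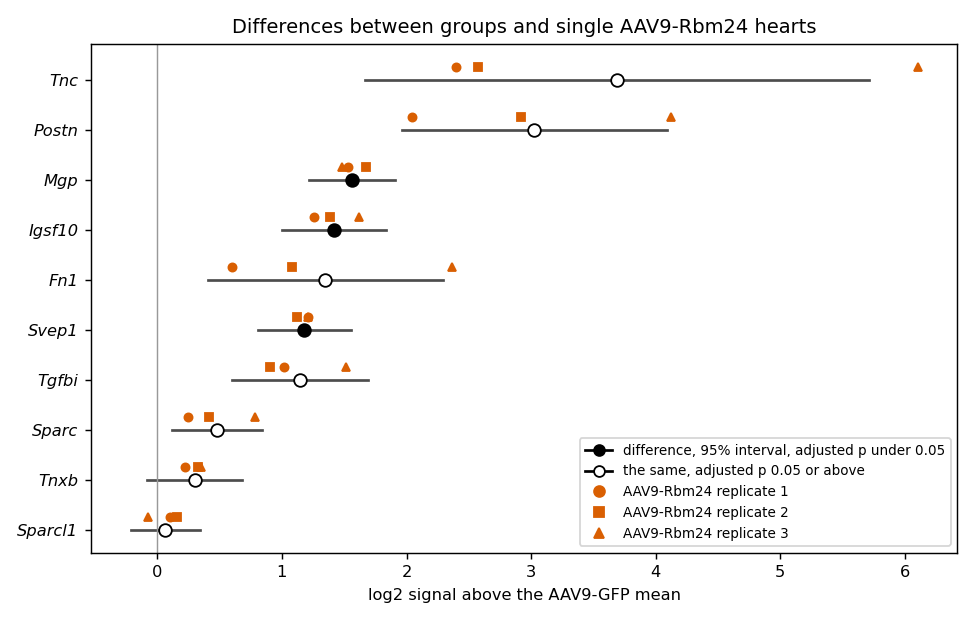
Log2 differences of the 10 genes between AAV9-Rbm24 and AAV9-GFP hearts (circles) with 95% intervals from limma (lines), filled where the adjusted p was under 0.05, and each AAV9-Rbm24 heart against the AAV9-GFP mean (orange symbols, shape for the replicate). The filled circles of Mgp, Igsf10 and Svep1 have short intervals, while the largest differences, of Tnc (3.69) and Postn (3.03), have the longest. A short interval favours a call, and the open circles of Tnxb, Sparc and Sparcl1 have short intervals too.

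The members also differed in how even their signals were among hearts of 1 group. Among the AAV9-Rbm24 hearts the SD of Tnc was 2.09 log2 units, and 0 of the 65956 clusters had a larger one. The SD was 1.04 for Postn and 0.91 for Fn1, with 61 and 103 clusters above them. For the called genes it was 0.10 (Mgp), 0.18 (Igsf10) and 0.05 (Svep1). This contrast is fixed in part by the calls, because limma calls a gene more readily where its SD is small. Tnxb and Sparcl1, which were not called, had an SD of 0.07 and 0.12. Over all clusters the median SD was 0.12 with AAV9-Rbm24 and 0.16 with AAV9-GFP. Among the controls, the SD was 0.12 for Tnc, 0.30 for Postn, 0.28 for Fn1, 0.27 for Mgp, 0.33 for Igsf10 and 0.32 for Svep1. The SD of Tnc, Postn and Fn1 was larger with AAV9-Rbm24 than in the controls, as it was for 36.8% of all clusters and 4 of the 10 members. That of Mgp, Igsf10 and Svep1 was smaller, which is the more common case over the whole array. The groups hold 3 hearts each, and no test of these spreads was made.

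AAV9-Rbm24 replicate 3 gave most of the spread of Tnc. Postn (13.04, 13.92 and 15.12) and Fn1 (11.64, 12.12 and 13.40) were spread more evenly than Tnc over AAV9-Rbm24 replicates 1, 2 and 3. In both, the step up to replicate 3 was still the larger one. Without that heart the Fn1 difference fell from 1.35 to 0.84. AAV9-Rbm24 replicate 3 was the highest of its group for 7 members, where it was highest for 30.5% of all clusters. It exceeded the mean of the other 2 by 3.62 for Tnc, 1.64 for Postn and 1.52 for Fn1, and by at least 1 log2 unit for only 212 clusters, or 0.321%. For Tgfbi and Sparc the excess was 0.55 and 0.45, and for Mgp and Sparcl1, where replicate 3 was the lowest of its group, the difference was -0.12 and -0.20. The viral gene itself, Rbm24, had log2 signals of 13.95, 13.63 and 13.57 with AAV9-GFP and 14.58, 14.74 and 15.12 with AAV9-Rbm24, so this heart also had the highest Rbm24 signal. The difference of Rbm24 was 1.1 (standard error 0.17, adjusted p = 0.0607 from limma), and its cluster does not tell the viral transcript from that of the mouse. Among the controls, AAV9-GFP replicate 1 was the highest of its group for all 10 members, as for 24.9% of clusters, and AAV9-GFP replicate 2, which had the highest array median (5.67), lay at one end of the first principal component of all clusters (-64.3). AAV9-Rbm24 replicate 3 lay at the other end (41.4), with the remaining 4 arrays between -9.74 and 16.8.

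Genes of proteins that act with the members had list medians between 0.08 and 0.29, apart from the collagens. Of 14 collagen genes that bind members or are laid down with them, 2 rose (Col1a2 by 2.36 and Col3a1 by 2.26, adjusted p = 0.0379 and 0.0484 from limma), and the list median was 1.10. Without adjustment (p under 0.05 in limma), 11 of the 14 were higher and 0 lower. Over all clusters, 4.08% were higher and 4.33% lower without adjustment, and 0.241% were called higher. The number of collagens called was 3 without AAV9-Rbm24 replicate 3 and 0 without any other array. For Col1a2, a chain of type I collagen, the AAV9-Rbm24 hearts had log2 signals of 11.69, 11.98 and 12.98 against 10.17, 9.67 and 9.72. Replicate 3 was again the highest. Col14a1, whose product interacts with collagen fibrils, had a difference of 1.55 (adjusted p = 0.119 from limma), and Col6a3 one of 1.56 (adjusted p = 0.0873).

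Of 47 further matricellular and adhesive glycoprotein genes, 2 rose and the median difference was 0.12. Without adjustment (p under 0.05 in limma), 13 were higher and 3 lower. Over all clusters, 4.08% were higher and 4.33% lower without adjustment, and 0.241% were called higher. The called genes were Thbs1, or thrombospondin 1, by 4.18 (adjusted p = 0.0113 from limma) and Dpt, or dermatopontin, a small protein that binds decorin and collagen, by 1.05 (adjusted p = 0.0241). The tenascin genes Tnn and Tnr had differences of -0.03 and -0.002, with means below the array medians. The matricellular genes Ccn1 and Ccn2 differed by 0.83 and 0.86 (adjusted p = 0.0607 and 0.0688 from limma). The lowest value in the list was that of Emilin2, at -0.56 (adjusted p = 0.193).

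Of 22 receptor genes, mainly integrins and syndecans, 1 rose, and the median difference was 0.26. Without adjustment (p under 0.05 in limma), 10 were higher and 0 lower. Over all clusters, 4.08% were higher and 4.33% lower without adjustment, and 0.241% were called higher. Cd44, the hyaluronan receptor that also binds matrix glycoproteins, rose by 0.88 (adjusted p = 0.0484 from limma), and this call was lost whichever array was left out. The αv integrin genes that read periostin, fibronectin and tenascin C had small differences, 0.54 for Itgav, 0.59 for Itgb5 and 0.42 for Itgb3 (adjusted p = 0.231, 0.085 and 0.228 from limma). For each of these 3 the groups did not overlap, an order found with AAV9-Rbm24 higher in 7.01% of clusters. The fibronectin receptor gene Itga5 had a difference of 0.46 (adjusted p = 0.333), and Itga9, the α subunit that binds Svep1, one of -0.32 (95% interval -0.85 to 0.22, adjusted p = 0.773).

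Of 21 assembly and crosslinking genes, 0 were called in limma. Without adjustment (p under 0.05), 9 of them were higher and 1 was lower, where 4.08% of all clusters were higher and 4.33% lower. Among them, Mmp14, a membrane-bound matrix protease, had a difference of 1.39 (adjusted p = 0.101 from limma), and the crosslinking enzyme gene Lox one of 1.12 (adjusted p = 0.417). Vkorc1 recycles the vitamin K that Ggcx uses to carboxylate Mgp. Vkorc1 had a difference of 0.80 (adjusted p = 0.107 from limma) and Ggcx one of 0.01 (adjusted p = 0.992). Of 25 upstream regulator genes, 0 were called, and 6 were higher and 1 lower without adjustment. Tgfbr1, Tgfbr2 and Tgfb2 differed by 0.63, 0.66 and 0.62 (adjusted p = 0.0807, 0.105 and 0.248 from limma), and Meox1, a transcription factor of activated fibroblasts, by 1.19 (adjusted p = 0.148).

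**Figure D3:**
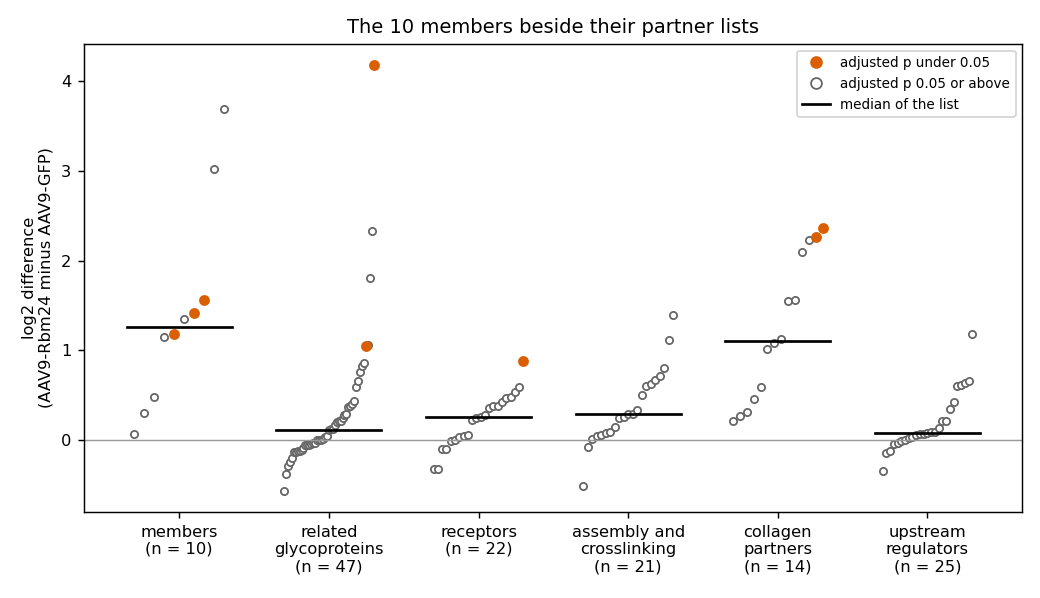
Log2 differences (AAV9-Rbm24 minus AAV9-GFP) of the 10 members and of 5 lists of genes that act with them, 1 point per gene, orange where the adjusted p was under 0.05, with a black line at each list's median. The medians are 1.26 for the members, 1.10 for the collagens and 0.08 to 0.29 for the other lists, and all the lists were written with results of these data known.

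Left ventricular tissue holds several cell types, and in bulk RNA a change in the number of cells of a type cannot be told apart from a change of RNA per cell. All 10 heart muscle markers lay above the array median on every array, and 0 were called in limma (without adjustment, 0 were higher and 1, Ryr2, lower). Of these, Actc1 lay at the ceiling of the arrays, and Pln, Tnnt2 and Myh6 lay just below it with log2 group means of 19.26 to 19.88, so their small differences say little. Among the dimmer markers, Ryr2, Tnni3 and Myl3 were lower in every AAV9-Rbm24 heart than in any control, by differences of -0.36, -0.20 and -0.18 (adjusted p = 0.51, 0.648 and 0.693 from limma), and Tnnc1, Myl2 and Myh7 overlapped. Such an order alone cannot pass a threshold of 0.05 with 3 hearts against 3. Its share of all clusters on the lower side was not computed, so no fall is read from it. The mean log2 signal over 9 fibroblast markers was 10.56 to 10.78 in the AAV9-GFP hearts and 11.43 to 11.94 in the AAV9-Rbm24 hearts, highest in replicate 3. The list shares Col1a1, Col1a2, Ddr2 and Tcf21 with the lists above. Of its markers, 2 were called higher (Lum and Col1a2). Without adjustment (p under 0.05 in limma), 6 were higher and 0 lower, where 4.08% of all clusters were higher. Dcn, Col1a1, Mfap5 and Ddr2 differed by 0.68, 2.23, 1.77 and 0.48, and Tcf21, Thy1 and Gsn by -0.03, -0.05 and -0.03. The mean over 7 markers of activated fibroblasts was 8.20 to 8.43 with AAV9-GFP and 8.64, 8.62 and 9.32 with AAV9-Rbm24, and 0 of them were called (2 higher and 0 lower without adjustment, in limma). Of these 7, Cilp and Meox1 differed by 2.33 and 1.19 with groups that did not overlap, while the other 5 overlapped, at -0.39 (Ddah1) to 0.36 (Ltbp2). The mean over 8 macrophage markers was 8.27 to 8.62 with AAV9-GFP and 9.77 to 10.43 with AAV9-Rbm24. All 8 macrophage markers were separated between the groups, and 3 were called (Adgre1, C1qb and C1qa). Over all clusters, 7.01% were separated with AAV9-Rbm24 higher, and 0.241% were called higher. The part of these cell types in the differences of the members was not tested.

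The means of the other marker lists differed less than those of the fibroblast and macrophage lists. The mean over 8 smooth muscle and pericyte markers was 10.42 to 10.74 with AAV9-GFP and 10.39 to 10.63 with AAV9-Rbm24, and that over 6 endothelial markers was 12.32 to 12.57 and 12.33 to 12.49. In valve, cartilage and tendon, which are rich in several members, 2 of 7 markers lay above the median on all arrays, and the list mean was 5.17 to 5.36 and 5.30 to 5.36. Of 6 lymphocyte and 6 epicardial markers, 2 each lay above the median on all arrays, with list means of 5.31 to 5.55 and 5.38 to 5.68 with AAV9-GFP and of 5.33 to 5.44 and 5.37 to 5.55 with AAV9-Rbm24. The mean over 5 lymphatic endothelial markers was 8.02 to 8.56 with AAV9-GFP and 8.23 to 8.43 with AAV9-Rbm24, and that over 3 Schwann cell markers 6.20 to 6.22 and 6.27 to 6.61. In none of these 7 lists was a marker called in limma, and without adjustment 1 marker each of the lymphatic, Schwann cell and valve, cartilage and tendon lists was higher and 0 of the other 4 lists.

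**Figure D4:**
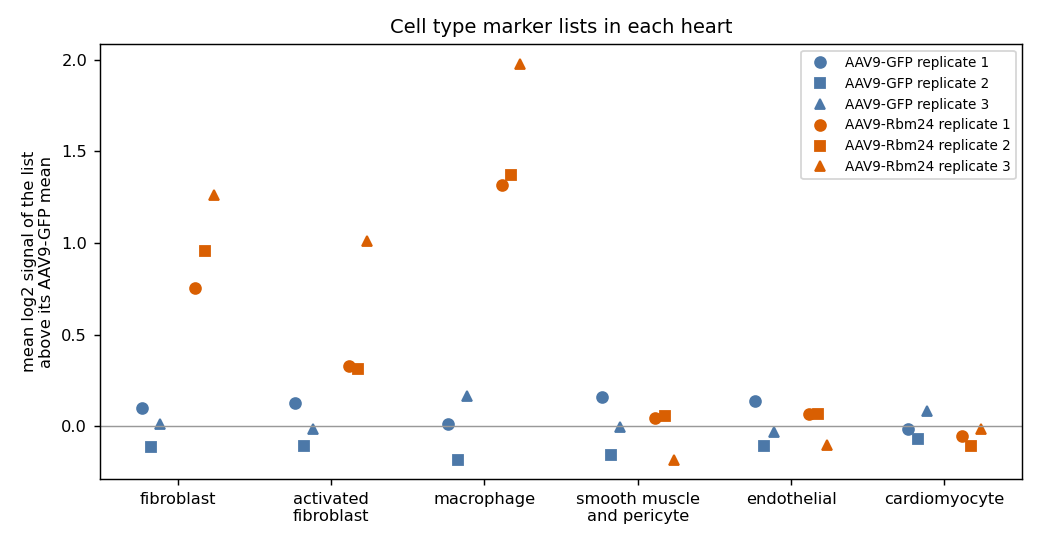
Mean log2 signal of 6 lists of cell type markers in each heart, relative to the AAV9-GFP mean of the list (blue for AAV9-GFP, orange for AAV9-Rbm24, shape for the replicate). The fibroblast, activated fibroblast and macrophage lists lie above all controls in every AAV9-Rbm24 heart and are highest in replicate 3, while the other 3 lists overlap between the groups.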

How the data were processed

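Left ventricular RNA of 6 mice was hybridized to Affymetrix Mouse Transcriptome Array 1.0, 1 array per mouse. Log2 signals of transcript clusters were deposited, which the authors had made with RMA in Affymetrix Expression Console, according to the submitters' processing notes. For these tools and for the array's genome build, no version was found in the labels or methods. Of 72688 rows, 6732 controls were left out, which left 65956 clusters, and dim signals were not removed. Symbols came from the platform annotation (30638 clusters with 1 symbol, 2176 with several, 33142 without), of which 330 were updated through RefSeq.

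Groups came from the sample titles. AAV9-Rbm24 was set against AAV9-GFP by lmFit and eBayes of limma 3.58.1 (R 4.3.3), with Benjamini-Hochberg adjustment over all clusters, a threshold of 0.05 and 95% intervals from the moderated variances, and the procedure was tested on simulated data. The number of arrays, 3 per group, limits the precision. The members, the 5 partner lists and the marker lists were chosen with earlier results of these data known. All members were named. From each list the text gives the called genes and some of those with the smallest p, while Ggcx, Itga9, Tnn, Tnr, Ccn1, Ccn2, Itga5, Lox, Emilin2, Actc1, Pln, Tnnt2, Myh6, Tnnc1, Myl2, Myh7, Ltbp2, Tcf21, Thy1 and Gsn were picked for their role or after their values were seen. Genes of a list without a cluster of their own were not analysed here. Alternatives were 2 filters, other variance models and scalings, array weights, the replicate block, each array left out, averaging over a gene's clusters and the test of the methods. Promoter windows came from RefSeq (GRCm38.p6). Exon and junction signals were not analysed here.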

Additional observations from a re-analysis of the deposited data

How the results depend on the processing

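All 159 values of the 10 members under the alternatives kept their direction, which the choice of the genes fixes in part, and 135 also kept their side of the threshold. The median member difference was 1.06 to 1.43 with an array left out, and that of Rbm24 0.94 to 1.21. With an array left out, the counts of calls ran from 0 to 3 for members, 0 to 90 for clusters higher, 0 to 4 for clusters lower, 0 to 2 for related glycoproteins, 0 to 3 for collagens, and were 0 for receptors. The 3 members called without AAV9-Rbm24 replicate 3 were Postn, Tnc and Mgp, so Igsf10 and Svep1 were not among them. Without AAV9-GFP replicate 2 0 members and 0 clusters were called in limma, although 8 members and 3444 clusters were higher at an unadjusted p under 0.05. Whether the replicate numbers pair the samples is not known from the labels. The deviations of same-numbered arrays correlated at 0.03, 0.10 and 0.15, which does not settle it. All 3 AAV9-GFP arrays correlated best with their own number, a hint from the data and not from the design. With the replicate number as a block, 76 clusters were higher and 7 lower, with 1 member (Mgp), 1 related glycoprotein, 0 collagens and 0 receptors called. Svep1 lost its call after renewed quantile normalization (adjusted p = 0.0572 from limma) and centring (0.0511). The single receptor call (Cd44) was lost (0 called) with centring, an intensity trend, robust variances and quantile normalization, where collagen calls fell to 1 with robust variances and 0 with quantile normalization. Clusters lower numbered 11 with centring and 63 with array weights. With a minimum mean signal of 6, 36 clusters were lower, with 2 receptors, 4 related glycoproteins and 1 regulator called. With a minimum of 8, 4 related glycoproteins and 1 regulator were. Among clusters with 1 symbol, 37 were lower, with 4 collagens, 2 receptors, 5 related glycoproteins and 1 regulator called. Fewer tests are adjusted for in these 3 settings. Rbm24, at 1.1 throughout, passed in those 3 and with an intensity trend. At the methods' thresholds in limma, 813 clusters were higher and 364 lower, with 7 members, 6 assembly genes, 10 collagens, 2 receptors, 10 related glycoproteins and 5 regulators. By the methods' own test, without moderation, 664 were higher and 251 lower, with 6 members, 3 assembly genes, 9 collagens, 2 receptors, 7 related glycoproteins and 5 regulators. The cause of these changes was not tested. Signals near the array median, as those of Tnc in the controls, limit the folds.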
